A study of Mus musculus with 4 samples.

Results

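The 32 genes described here code for the steps of glycolysis, from glucose uptake to lactate export, and for the sensing of and response to low oxygen. They were chosen by gene symbol, and all 32 were found among the 27998 genes of a single-cell RNA sequencing table of mouse back skin. The table holds 4 libraries of FACS-sorted cells from CD1 mice aged 7 to 8 weeks, 1 library for each of 4 groups. These are control and Ovol1-null skin, each untreated or given 1 dose of 62.5 mg of 5% imiquimod (IMQ) cream on the shaved back. Imiquimod is a Toll-like receptor 7 agonist whose cream gives mice a psoriasis-like skin inflammation, and Ovol1 is a zinc-finger transcription factor of the epidermis. The sources used here do not give the number of mice behind a library, the alleles of the control and Ovol1-null mice, the markers of the sort or the time between the cream and the harvest. Each group is 1 library, so no difference between groups has a replicate check, and every interval covers counting error only, not the spread between mice.

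Glycolysis splits glucose into pyruvate in the cytosol and yields ATP without oxygen, and lactate dehydrogenase turns pyruvate into lactate when the mitochondria do not take it up. The transcription factor HIF-1 couples this pathway to oxygen. Its alpha subunit is hydroxylated by prolyl hydroxylases (the EGLN enzymes) and destroyed when oxygen is present, and when oxygen is low it pairs with ARNT at hypoxia response elements and switches on genes of glucose uptake, glycolysis, angiogenesis and mitophagy. The epidermis has no blood vessels of its own, and glycolytic genes and HIF-1 are well known from inflamed, proliferating epidermis.

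The results are given as unique molecular identifiers (UMIs, each a counted transcript) of a gene per 10000 UMIs of all genes, summed over the cells of a class in a library. Values stand in the order control untreated, control imiquimod, labelled null untreated and labelled null imiquimod. A ratio of these values is followed, in parentheses, by its exact 95% counting interval. A gene with at least 20 UMIs over both libraries of a comparison is called measured, and it is called higher or lower where its ratio is at least 1.5 either way and the interval lies on one side of 1. The 3′ counts are not corrected for gene length or capture, so levels are compared within a gene and not between genes.

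After filters the libraries held 6066, 5576, 5214 and 5553 cells with medians of 5706, 4760, 5703 and 8394 UMIs per cell, and their total counts ran from 29649307 to 55103047 UMIs. The libraries shared 267 cell barcode sequences. Cells fell into classes named by markers, and 9 classes had at least 50 cells in every library. One of these had too few markers to name and is called by its leading gene, Sostdc1. In the labelled null imiquimod library cells were deeper: median UMIs per cell were 4936, 5408, 5357 and 15507 in basal keratinocytes, 6482, 8292, 6834 and 18888 in suprabasal keratinocytes and 6738, 4378, 6178 and 8020 in fibroblasts. In basal and suprabasal keratinocytes and in fibroblasts the largest cluster differed between untreated and imiquimod skin. Joint clusters 5, 7, 5 and 9 held the most basal keratinocytes of each library, clusters 2, 12, 2 and 8 the most suprabasal keratinocytes and clusters 3, 1, 6 and 0 the most fibroblasts. Bulge or outer root sheath, mural, macrophage or monocyte and T or NK cells each had the same largest cluster in every library. When control imiquimod skin was clustered on its own, the cluster led by Pyy held 264 basal and 204 suprabasal cells. The targeted gene did not check the labels, because 3′ tags can lie outside a deleted part: suprabasal Ovol1 stood at 0.396, 0.395, 0.549 and 1.84 UMIs per 10000, highest in the library labelled null and imiquimod. The 8 basal keratinocyte markers summed to 301, 223, 290.0 and 350.3 UMIs per 10000 in the basal class, the 10 suprabasal markers to 375, 418, 356 and 460.2 in the suprabasal class and the 8 fibroblast markers to 1255, 483, 1071 and 452 in fibroblasts.

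RefSeq promoter windows on GRCm38.p6, running from 250 bases before to 50 bases after an annotated start, were at hand for 30 of the 32 genes and missing for Ndrg1 and Bnip3l. The core of the hypoxia response element was searched for as ACGTG or GCGTG on either strand, so that a palindromic CACGTG holds a match on both strands. At least 1 match stood in 34 of the 43 windows of the listed genes (79.07%) and in 14380 of all 32851 windows (43.77%). The listed genes' windows were also richer in G and C, with a median of 63.33% against 52.67% over all windows, and the part of base composition in the difference was not tested. CACGTG itself was in 4 of the 43 windows (9.302%) and in 7.15% of all windows. Windows of 4 genes whose levels are described below are printed: Ldha (lactate dehydrogenase A, the first of its 2 windows, 7 matches), Egln3 (an oxygen-sensing prolyl hydroxylase, 1 match), Bnip3 (a mitophagy receptor, 5 matches) and Ddit4 (an inhibitor of mTORC1 signalling, 2 matches). Each reads 5′ to 3′ on the gene's strand with the matches in capitals. A match is a description of these letters and not a bound site, and a link between matches and expression was not tested.
Ldha chr7:46845554-46845853 (+ strand): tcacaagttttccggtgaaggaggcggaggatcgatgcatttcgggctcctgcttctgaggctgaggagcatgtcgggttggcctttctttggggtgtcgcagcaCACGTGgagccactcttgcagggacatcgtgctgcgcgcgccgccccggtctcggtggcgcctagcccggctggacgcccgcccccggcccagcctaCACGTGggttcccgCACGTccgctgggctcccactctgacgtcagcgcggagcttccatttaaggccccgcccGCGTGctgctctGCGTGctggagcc
Egln3 chr12:54203825-54204124 (- strand): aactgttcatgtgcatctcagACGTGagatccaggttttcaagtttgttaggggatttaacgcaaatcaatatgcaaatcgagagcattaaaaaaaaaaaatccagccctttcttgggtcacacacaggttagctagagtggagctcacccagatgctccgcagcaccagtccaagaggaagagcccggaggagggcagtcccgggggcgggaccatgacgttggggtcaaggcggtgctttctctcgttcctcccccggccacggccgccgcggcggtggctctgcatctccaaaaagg
Bnip3 chr7:138909457-138909756 (- strand): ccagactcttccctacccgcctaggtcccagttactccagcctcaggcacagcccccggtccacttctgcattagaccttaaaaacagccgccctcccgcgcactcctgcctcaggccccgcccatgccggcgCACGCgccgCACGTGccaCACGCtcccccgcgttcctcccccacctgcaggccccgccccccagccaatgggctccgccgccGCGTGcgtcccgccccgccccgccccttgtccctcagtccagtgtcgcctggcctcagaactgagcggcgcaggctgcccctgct
Ddit4 chr10:59951721-59952020 (- strand): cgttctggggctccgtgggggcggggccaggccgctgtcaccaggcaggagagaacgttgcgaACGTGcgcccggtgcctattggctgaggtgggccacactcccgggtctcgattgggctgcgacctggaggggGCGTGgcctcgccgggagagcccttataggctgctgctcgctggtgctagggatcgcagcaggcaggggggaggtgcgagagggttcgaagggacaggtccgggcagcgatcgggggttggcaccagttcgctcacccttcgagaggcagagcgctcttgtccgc

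Summed over the 32 genes, keratinocytes of imiquimod skin held more of these transcripts than keratinocytes of untreated skin under both genotype labels, with the highest level in the labelled null imiquimod library. Basal keratinocytes held 32.7, 53.9, 32 and 101 UMIs per 10000. The ratio of imiquimod to untreated was 1.65 (1.61 to 1.68) in control and 3.14 (3.09 to 3.2) in labelled null basal cells. Suprabasal keratinocytes held 23.8, 47.2, 23.4 and 89.9 UMIs per 10000, with ratios of 1.98 (1.93 to 2.03) and 3.85 (3.78 to 3.91). Both layers gave the same order of libraries, with the untreated libraries nearly level: the ratio of labelled null to control untreated was 0.978 (0.953 to 1.0) in basal and 0.981 (0.956 to 1.01) in suprabasal cells. Under imiquimod the labelled null library stood above the control library by a ratio of 1.87 (1.85 to 1.89) in basal and 1.9 (1.88 to 1.93) in suprabasal cells. Among cells of 4000 to 12000 UMIs alone, a range set after seeing the depths, the sums were 32.3, 53.9, 31.9 and 85.5 in basal and 23.4, 45.4, 23.1 and 67.5 in suprabasal keratinocytes. The order of the imiquimod libraries was thus the same within that range, which left 156 basal and 66 suprabasal cells of the labelled null imiquimod library. The gap between these libraries was narrower than in all cells. Labelled null imiquimod cells were still deeper there than control imiquimod ones, with medians of 8818 against 6271 UMIs in basal and 9134 against 8270 in suprabasal cells. The parts of depth and of the mix of cells within a class in the difference were not tested.

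**Figure D1:**
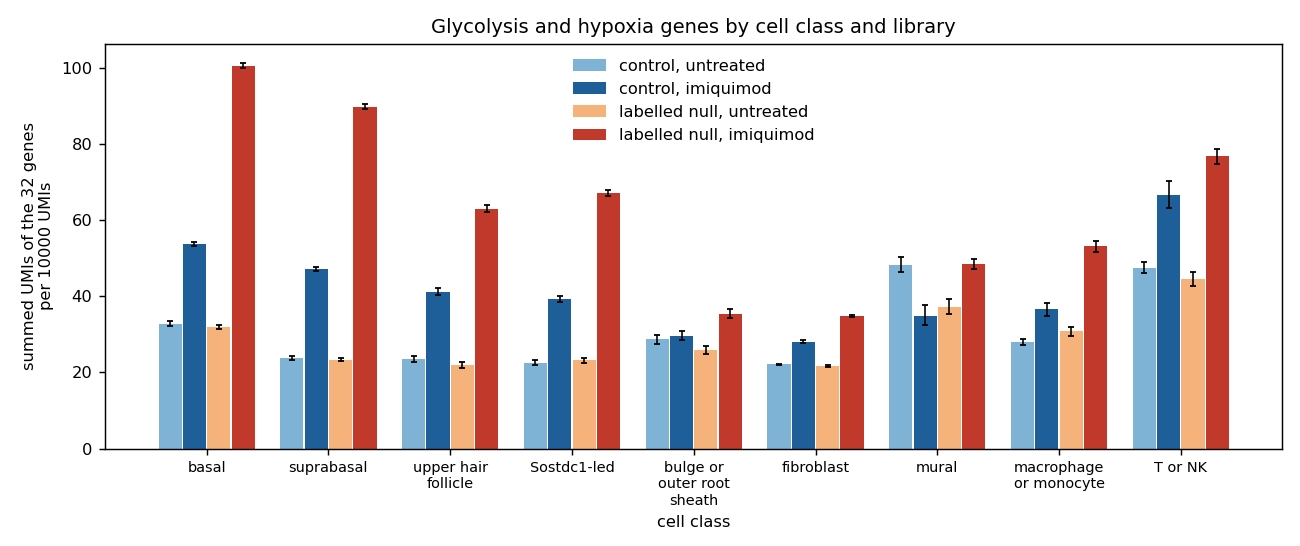
Summed UMIs of the 32 genes per 10000 UMIs (y axis) in 9 cell classes (x axis) and 4 libraries (bar colours), with error bars for the 95% counting interval. The labelled null imiquimod bar is the tallest in every class, at 101 in basal keratinocytes, though in mural cells it is level with control untreated (48.5 and 48.3).

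The other keratinocyte classes were ordered in the same direction. Upper hair follicle keratinocytes held 23.5, 41.2, 22 and 63 UMIs per 10000, with imiquimod ratios of 1.75 (1.68 to 1.82) in control and 2.87 (2.77 to 2.97) in labelled null, and the Sostdc1-led class 22.6, 39.3, 23.2 and 67.1, with ratios of 1.74 (1.68 to 1.8) and 2.89 (2.8 to 2.98). Cells of the hair follicle bulge or outer root sheath stood nearly level between untreated and imiquimod skin in the control, with 28.7, 29.7, 25.8 and 35.4 UMIs per 10000 and a ratio of 1.03 (0.973 to 1.1), against 1.37 (1.3 to 1.44) in the labelled null. Fibroblasts held 22.1, 28.1, 21.8 and 34.8, macrophages or monocytes 28, 36.6, 30.8 and 53.1 and T or NK cells 47.5, 66.6, 44.6 and 76.8. Mural cells, the contractile cells of small vessels, were the class in which the control sum was lower with imiquimod, at 48.3, 35, 37.3 and 48.5 UMIs per 10000. Over the 9 classes the interval of the imiquimod ratio lay above 1 in 7 and below 1 in 1 for control, and above 1 in 9 for labelled null.

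In basal keratinocytes 19 of 31 measured genes were called higher and 1 lower in control imiquimod than in control untreated skin, where 7.64% of all measured genes were called higher and 16.4% lower. In the labelled null 24 of 32 were higher and 1 lower, against 16.2% and 29% of all genes. The median log2 ratio of the listed genes was 0.72 in control and 1.30 in labelled null basal cells, beside -0.22 and -0.19 over all measured genes. In suprabasal keratinocytes 26 of 30 were higher and none lower in control, with 7.17% of all genes higher and 12.1% lower. In labelled null suprabasal cells 25 of 31 were higher and none lower, with 16.6% and 29.4% of all genes. Suprabasal medians were 1.0 and 1.71, beside -0.14 and -0.21 over all genes. The share of higher genes among all genes called moves with the scaling: with TMM factors instead of class totals it went from 31.8% to 55.4% in control and from 35.9% to 54.5% in labelled null basal cells, and from 37.3% to 56.6% and from 36.2% to 49.6% in suprabasal cells. TMM raised the log2 ratio of every gene in these 4 comparisons by 0.19, 0.24, 0.14 and 0.19.

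**Figure D2:**
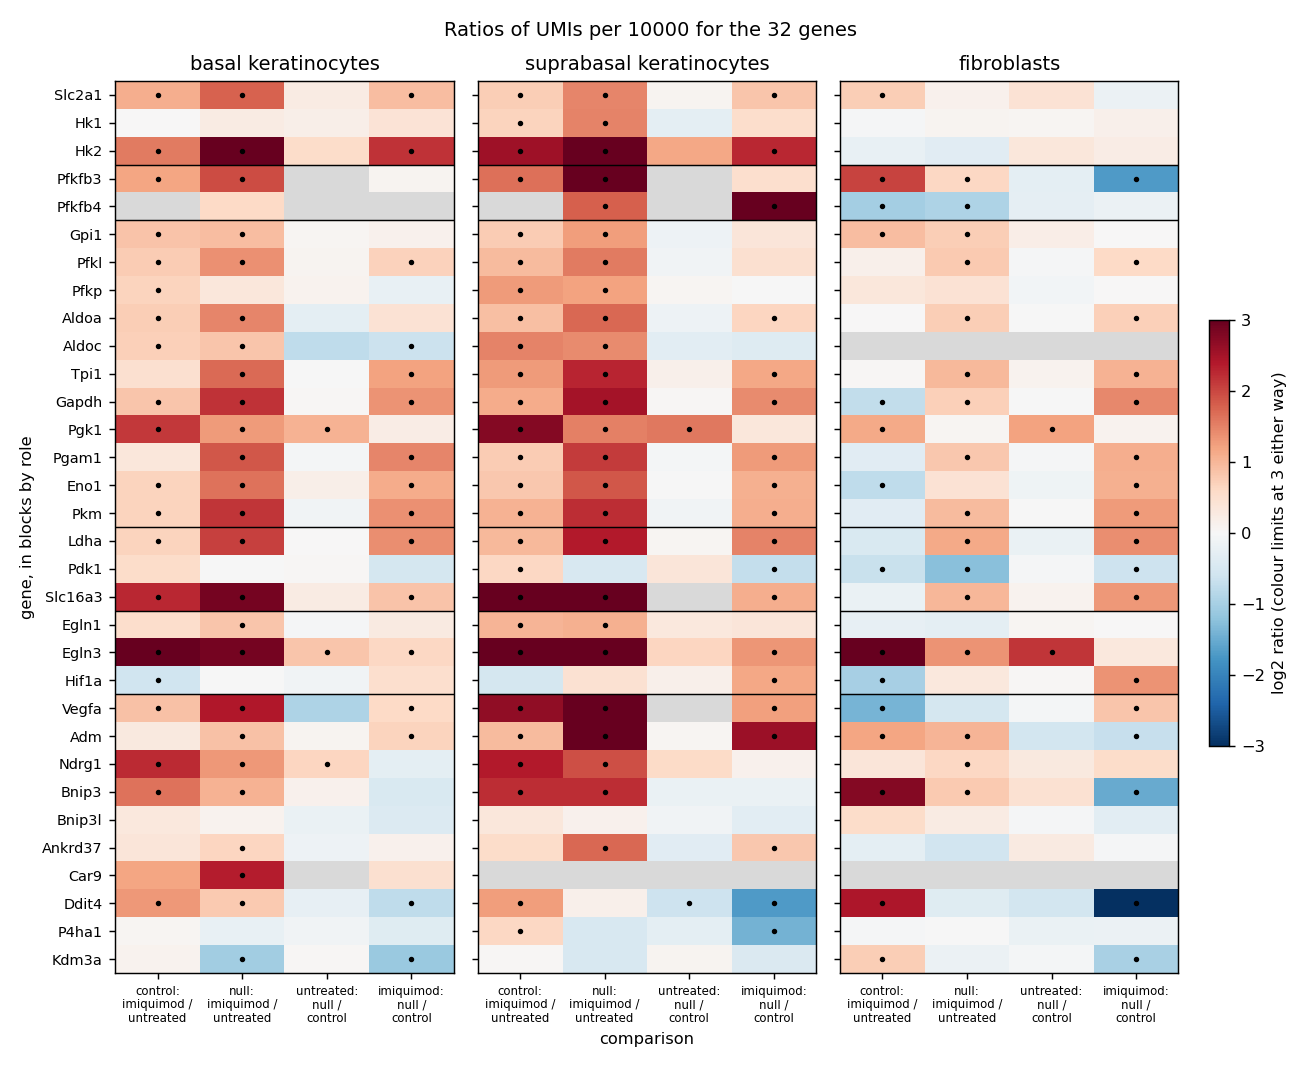
Log2 ratios of UMIs per 10000 (colour, limits at 3 either way) of the 32 genes (rows, in blocks by role) in 4 comparisons (columns) and 3 cell classes (panels). Dots mark genes called higher or lower, and grey marks genes under 20 UMIs. The first 2 columns of both keratinocyte panels are mostly red, with 26 and 25 genes called higher in suprabasal cells.

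In basal cells, glucose uptake and its first chemical step differed mainly in the inducible forms. Slc2a1 (GLUT1), the main glucose transporter of keratinocytes, stood at 0.624, 1.32, 0.736 and 2.5 UMIs per 10000 in basal cells. It was 2.12-fold higher (1.81 to 2.5) with imiquimod in control and 3.4-fold higher (3.04 to 3.82) in labelled null basal cells. Suprabasal Slc2a1 was at 0.333, 0.553, 0.356 and 0.989, the same order at a lower level in each library. Hk2, the inducible hexokinase that traps glucose in the cell as glucose 6-phosphate, was rare in untreated basal cells, with 0.0241, 0.0752, 0.0366 and 0.343 UMIs per 10000. It was 3.12-fold higher (1.42 to 8.1) with imiquimod in control and 9.37-fold higher (5.76 to 16.3) in labelled null basal cells. Suprabasal Hk2 was at 0.015, 0.0945, 0.0357 and 0.458, that is 6.29-fold higher (2.68 to 18.1) and 12.8-fold higher (8.6 to 19.9). Hk1, the constitutive hexokinase, was at 0.234, 0.238, 0.267 and 0.316 in basal cells and called in neither imiquimod comparison there. In suprabasal cells, at 0.16, 0.254, 0.13 and 0.37, Hk1 was called higher in both. Its imiquimod ratio in labelled null suprabasal cells was above that of Slc2a1. Pfkfb3, which makes the allosteric activator of phosphofructokinase, was rare in untreated suprabasal cells, with 0.025, 0.0819, 0.011 and 0.117 UMIs per 10000, and called higher with imiquimod under both labels. Its relative Pfkfb4 was measured in labelled null suprabasal cells, where it was 3.69-fold higher (1.45 to 11.1) with imiquimod, and not measured in control ones.

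All 11 genes of the chain from glucose 6-phosphate to pyruvate were called higher with imiquimod in suprabasal cells under both labels. In basal cells 9 of 11 were called higher in control and 10 of 11 in labelled null. The 11 genes summed to 23.9, 39.1, 23.1 and 76.7 UMIs per 10000 in basal and 18.1, 36, 17.6 and 70 in suprabasal keratinocytes. Gapdh, which makes the NADH of glycolysis, was at 4.27, 7.63, 4.34 and 19.5 UMIs per 10000 in basal cells, 1.79-fold higher (1.68 to 1.9) with imiquimod in control and 4.48-fold higher (4.28 to 4.7) in labelled null. Suprabasal Gapdh was at 2.82, 6.07, 2.91 and 16.3, with the labelled null imiquimod library again far above the other 3. Pkm, the pyruvate kinase that ends the chain, was at 3.39, 5.42, 3.17 and 14 in basal and 2.43, 4.98, 2.28 and 10.6 in suprabasal cells. Its labelled null ratios were 4.42 (4.19 to 4.67) and 4.68 (4.44 to 4.94). Pgam1 (phosphoglycerate mutase) separated the genotype labels most clearly within the chain in basal cells: at 2.13, 2.7, 2.06 and 7.44 it was 1.27-fold higher (1.16 to 1.39) in control, short of a call, and 3.62-fold higher (3.38 to 3.87) in labelled null. Tpi1 (triose phosphate isomerase) did likewise, at 2.61, 3.65, 2.58 and 8.43, with ratios of 1.4 (1.29 to 1.51) and 3.27 (3.08 to 3.48).

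Among the other genes of the chain, Gpi1, Pfkp and Aldoc gave closer ratios under both labels. Gpi1 (glucose phosphate isomerase) was at 1.82, 3.31, 1.89 and 3.59 in basal cells, 1.82-fold higher (1.66 to 2.0) in control and 1.89-fold higher (1.76 to 2.04) in labelled null. Pfkp, a phosphofructokinase, was the one chain gene with a higher ratio call in control basal cells alone, at 0.969, 1.55, 1.05 and 1.33 UMIs per 10000, with ratios of 1.6 (1.4 to 1.82) and 1.27 (1.14 to 1.41). The liver-type form Pfkl was at 0.417, 0.714, 0.439 and 1.15 and called higher in both. Aldoa (aldolase A) was at 6.23, 10.4, 5.13 and 14.1 in basal and 5.48, 10.2, 4.9 and 16.1 in suprabasal cells, and Eno1 (enolase 1) at 1.78, 2.85, 2.01 and 6.2 and 1.68, 2.95, 1.68 and 6.14. Both were called higher with imiquimod in all 4 of these comparisons. Between the imiquimod libraries Eno1 was called higher in labelled null in both layers, Pfkl in basal and Aldoa in suprabasal cells. Aldoc, a minor aldolase, was at 0.133, 0.376, 0.107 and 0.288 in suprabasal cells, 2.83-fold higher (2.08 to 3.93) in control and 2.69-fold higher (2.07 to 3.54) in labelled null.

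Pgk1 (phosphoglycerate kinase) was the only gene of the chain called between the untreated libraries in basal and in suprabasal cells. It stood at 0.183, 0.80, 0.381 and 0.93 UMIs per 10000 in basal and 0.0851, 0.584, 0.258 and 0.74 in suprabasal cells, with control untreated lowest in both. Its imiquimod ratio was larger in control, at 4.38 (3.3 to 5.91) in basal and 6.86 (4.8 to 10.1) in suprabasal cells, than in labelled null, at 2.44 (2.08 to 2.88) and 2.87 (2.42 to 3.4). The untreated labelled null library lay above the untreated control library, 2.09-fold higher (1.53 to 2.89) in basal and 3.03-fold higher (2.1 to 4.51) in suprabasal cells. Pgk1 was called higher in that comparison in 6 of 9 classes, and its ratios over all 9 ran from 1.34 to 3.03. The table also holds Pgk1-rs7 and Eno1b, near-identical copies of Pgk1 and Eno1 that can share reads with them, so the counts of Pgk1 and Eno1 are uncertain to that extent. In control basal cells Pgk1-rs7 was at 0.0069 and 0.0475 UMIs per 10000, 6.89-fold higher (1.77 to 59.1) with imiquimod, and Eno1b at 0.0379 and 0.157 UMIs per 10000, 4.14-fold higher (2.23 to 8.52).

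At the branch point after pyruvate, the lactate side was higher with imiquimod. Ldha, which turns pyruvate into lactate, was at 3.09, 4.91, 3.11 and 13 UMIs per 10000 in basal cells. It was 1.59-fold higher (1.47 to 1.71) with imiquimod in control and 4.17-fold higher (3.95 to 4.41) in labelled null basal cells. Suprabasal Ldha was at 2.02, 3.97, 2.12 and 11.1, with ratios of 1.97 (1.81 to 2.14) and 5.23 (4.95 to 5.53). The labelled null imiquimod library thus held more Ldha than each of the other 3 in both layers. Slc16a3 (MCT4), a lactate exporter, was at 0.0448, 0.223, 0.0538 and 0.402 in basal cells, 4.98-fold higher (2.83 to 9.54) in control and 7.46-fold higher (4.98 to 11.7) in labelled null. In suprabasal cells it rested on 2 UMIs in each untreated library, at 0.00501, 0.0546, 0.00275 and 0.117 UMIs per 10000, so its ratios of 10.9 (2.73 to 94.8) and 42.7 (11.5 to 358) have wide intervals. Pdk1, a kinase that keeps pyruvate out of the mitochondria by shutting pyruvate dehydrogenase, did not follow Ldha in the labelled null: at 0.195, 0.30, 0.254 and 0.182 in suprabasal cells it was 1.54-fold higher (1.16 to 2.05) in control, called higher, and 1.39-fold lower (1.11 to 1.76) in labelled null, short of a call.

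Egln3, a prolyl hydroxylase that acts on HIF-1 alpha and is itself a HIF target, had the largest imiquimod ratio of the 32 genes in control basal cells. It stood at 0.0759, 0.662, 0.138 and 1.02 UMIs per 10000 in basal cells, 8.73-fold higher (5.7 to 14.1) with imiquimod in control and 7.42-fold higher (5.76 to 9.71) in labelled null. Suprabasal Egln3 was at 0.0476, 0.445, 0.0755 and 1.11, with ratios of 9.36 (5.85 to 15.9) and 14.7 (11.2 to 19.7). Both imiquimod libraries were above both untreated libraries in either layer. Egln1, the prolyl hydroxylase that sets HIF levels in most cells, was at 0.175, 0.357, 0.218 and 0.457 in suprabasal cells, 2.04-fold higher (1.53 to 2.73) and 2.09-fold higher (1.73 to 2.54). Hif1a itself, coding for the subunit that is controlled mainly as a protein, went another way. It was at 1.03, 0.684, 0.969 and 0.968 in basal cells, 1.51-fold lower (1.31 to 1.75) with imiquimod in control and at a ratio of 0.999 (0.892 to 1.12) in labelled null. The control call for Hif1a held under 6 of 13 other settings, with its log2 ratio between -0.84 and -0.40 in all of them. In suprabasal cells Hif1a was at 0.483, 0.334, 0.538 and 0.742, with control imiquimod the lowest and labelled null imiquimod the highest library.

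Targets of HIF outside glycolysis gave a mixed picture. The 10 listed targets summed to 3.19, 5.82, 3.07 and 4.54 UMIs per 10000 in basal and 2.21, 4.77, 2.03 and 4.27 in suprabasal keratinocytes, with control imiquimod the highest library. In suprabasal cells that order rested on Ddit4: without it the other 9 targets summed to 1.83, 3.85, 1.78 and 3.99, with labelled null imiquimod the highest, while in basal cells, at 2.8, 4.86, 2.74 and 3.98, control imiquimod was still the highest. This sum without Ddit4 was added after the values were seen. Bnip3, a mitophagy receptor, was at 0.448, 1.38, 0.491 and 1.01 in basal cells, 3.09-fold higher (2.57 to 3.73) in control and 2.06-fold higher (1.78 to 2.39) in labelled null. Suprabasal Bnip3 was at 0.223, 1.04, 0.195 and 0.907, with ratios of 4.67 (3.72 to 5.92) and 4.65 (3.87 to 5.62). Its relative Bnip3l was at 1.08, 1.35, 0.934 and 1.01 in basal cells and was called in no comparison in either layer. Ndrg1, a stress and differentiation gene induced by hypoxia, was at 0.176, 0.839, 0.276 and 0.686 in basal and 0.168, 0.882, 0.251 and 0.967 in suprabasal cells. Its ratios were 4.77 (3.58 to 6.48) and 5.26 (4.06 to 6.91) in control, and 2.49 (2.06 to 3.03) and 3.85 (3.27 to 4.56) in labelled null. Basal Ddit4 was at 0.386, 0.957, 0.327 and 0.564, 2.48-fold higher (2.03 to 3.05) with imiquimod in control and 1.72-fold higher (1.44 to 2.08) in labelled null. It was at 0.386, 0.918, 0.253 and 0.281 in suprabasal cells, 2.38-fold higher (1.98 to 2.88) with imiquimod in control, but at a ratio of 1.11 (0.909 to 1.37) in labelled null.

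Vegfa, the main angiogenic growth factor, was rare in these 3′ counts, with 0.00751, 0.0546, 0.00961 and 0.13 UMIs per 10000 in suprabasal cells, and was 7.27-fold higher (2.23 to 37.5) in control and 13.5-fold higher (6.3 to 34.5) in labelled null. Adm, coding for the vasodilator peptide adrenomedullin, was high in 1 library of the suprabasal class, at 0.0426, 0.084, 0.0453 and 0.502 UMIs per 10000, and 11.1-fold higher (7.75 to 16.4) with imiquimod in labelled null. Ankrd37, a small hypoxia-induced ankyrin protein, was at 0.0976, 0.145, 0.0769 and 0.254, called higher in labelled null alone. Car9 (carbonic anhydrase 9, which exports acid from hypoxic cells) was at 0.0172, 0.0422, 0.0108 and 0.0597 in basal cells, 5.55-fold higher (2.25 to 17.7) in labelled null, and was not measured in suprabasal cells. Kdm3a, a histone demethylase, was the one listed gene called lower in labelled null basal cells, at 0.221, 0.239, 0.226 and 0.11 and 2.05-fold lower (1.55 to 2.71) with imiquimod. P4ha1, a collagen prolyl hydroxylase, was at 0.479, 0.497, 0.446 and 0.384 in basal cells and called in neither imiquimod comparison there, and at 0.145, 0.225, 0.118 and 0.0842 in suprabasal cells, where it was 1.55-fold higher (1.11 to 2.17) in control.

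**Figure D3:**
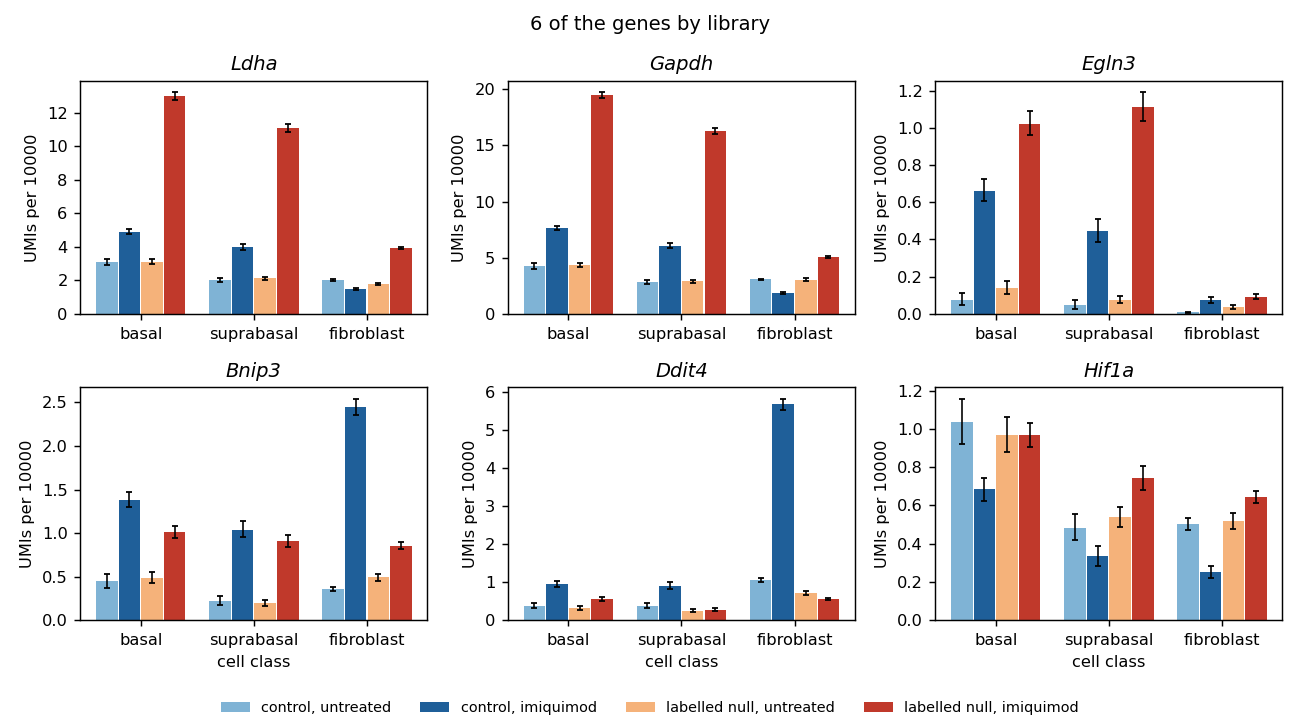
UMIs per 10000 (y axis, its own scale in each panel) of Ldha, Gapdh, Egln3, Bnip3, Ddit4 and Hif1a in basal keratinocytes, suprabasal keratinocytes and fibroblasts (x axis) for the 4 libraries (bar colours), with 95% counting intervals as error bars. These 6 genes were picked after their values were seen. Fibroblast Ddit4 stands out in control imiquimod at 5.69, while fibroblast Ldha is highest in labelled null imiquimod at 3.93.

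Between the genotype labels, untreated keratinocytes differed little in these genes. In basal cells 3 of 29 measured genes were higher and none lower in labelled null than in control untreated skin, with 3.84% of all genes higher and 2.44% lower. These were Pgk1, Egln3 at a ratio of 1.82 (1.1 to 3.1) and Ndrg1 at 1.57 (1.12 to 2.21). In suprabasal cells 1 of 27 was higher, Pgk1, and 1 lower, Ddit4, which was 1.53-fold lower (1.22 to 1.9), with 3.98% of all genes higher and 2.57% lower. The interval of Ddit4 lay below 1 in 8 of 9 classes in this comparison. Among all genes called in it, the higher share of suprabasal cells went from 60.7% to 71.6% with TMM factors.

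In imiquimod skin the labels differed more. In basal cells 13 of 31 genes were higher in labelled null than in control imiquimod and 3 lower, but many genes outside the list differed too, 22.4% higher and 21.8% lower. In suprabasal cells 16 of 31 were higher and 3 lower, against 16.5% and 20.5% of all genes. The higher genes of basal cells were Slc2a1, Hk2, Pfkl, Tpi1, Gapdh, Pgam1, Eno1, Pkm, Ldha, Slc16a3, Egln3, Vegfa and Adm, led by Hk2 at 4.56 (3.43 to 6.15), Pgam1 at 2.75 (2.62 to 2.89) and Ldha at 2.65 (2.55 to 2.75). The lower genes were Aldoc at a ratio of 0.639 (0.461 to 0.882), Ddit4 at 0.59 (0.527 to 0.66) and Kdm3a at 0.461 (0.36 to 0.589). Suprabasal Adm was 5.98-fold higher (4.3 to 8.51) in labelled null, Hk2 4.85-fold higher (3.54 to 6.77) and Hif1a 2.22-fold higher (1.86 to 2.67), while Ddit4 was 3.26-fold lower (2.76 to 3.87), P4ha1 2.67-fold lower (1.93 to 3.72) and Pdk1 1.65-fold lower (1.29 to 2.11). Of the 11 genes of the chain, 6 were thus called higher and 1 lower in basal cells, and 6 higher and 0 lower in suprabasal cells, while Ddit4 was called lower in both layers. In cells of 4000 to 12000 UMIs the basal log2 ratio of Adm turned from 0.66 to -0.64, suprabasal Slc2a1 went from 0.84 to 0.05 and suprabasal Adm from 2.56 to 0.93. The sign of basal Aldoc turned when clusters were made finer.

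In control fibroblasts the listed genes did not go one way with imiquimod, while in labelled null ones most of those called were higher. In the control 9 of 30 measured genes were higher and 6 lower with imiquimod, beside a background of 17.5% higher and 17.1% lower in all genes, with a median log2 ratio of -0.01. The control share called lower was thus near that of all genes. In labelled null fibroblasts 14 of 30 were higher and 2 lower, where 9.38% of all genes were higher and 28.4% lower, with a median log2 ratio of 0.44 beside -0.24 over all genes. With TMM factors the higher share of all genes called went from 24.9% to 44.9% in this comparison, whose log2 ratios shift by 0.25. Aldoc and Car9 were not measured in fibroblasts.

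The glycolytic chain of fibroblasts was lower in the control imiquimod library and higher in the labelled null one, with sums of 13.1, 11.4, 13.1 and 22.3 UMIs per 10000. Gapdh was at 3.07, 1.85, 3.06 and 5.06, 1.66-fold lower (1.58 to 1.75) with imiquimod in control and 1.65-fold higher (1.59 to 1.71) in labelled null. Eno1 was at 1.22, 0.726, 1.12 and 1.51, 1.68-fold lower (1.55 to 1.83) in control and at a ratio of 1.35 (1.27 to 1.44) in labelled null. Ldha was at 2.03, 1.48, 1.78 and 3.93, with a ratio of 0.731 (0.69 to 0.775) in control, short of a call, and 2.21-fold higher (2.11 to 2.31) in labelled null. Pkm, at 2.34, 1.85, 2.3 and 4.46, Pgam1, at 1.02, 0.807, 0.988 and 1.72, and Tpi1, at 0.951, 0.969, 1.02 and 2.01, were also called higher in labelled null and not in control. Gpi1 was the chain gene apart from Pgk1 that was called higher in control fibroblasts, at 0.669, 1.26, 0.765 and 1.28, with ratios of 1.89 (1.75 to 2.03) and 1.67 (1.55 to 1.8) in control and labelled null. Hk2, at 0.416, 0.357, 0.529 and 0.415, was called in no comparison in fibroblasts. Slc16a3, at 0.0907, 0.0789, 0.0974 and 0.195, was 2.0-fold higher (1.63 to 2.46) in labelled null.

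The hypoxia targets of fibroblasts ran against the chain in control, while in labelled null both sums were higher with imiquimod. The targets summed to 5.44, 13.8, 5.16 and 6.73 UMIs per 10000, with the highest level in control imiquimod. Without Ddit4 the other 9 summed to 4.38, 8.07, 4.44 and 6.17, in the same order of the imiquimod libraries. Ndrg1 had the reverse order, at 1.19, 1.53, 1.45 and 2.22, and was called higher with imiquimod in labelled null alone. Bnip3l, P4ha1 and Ankrd37 were called in neither imiquimod comparison. Ddit4 was at 1.06, 5.69, 0.721 and 0.556, 5.36-fold higher (5.11 to 5.63) with imiquimod in control and at a ratio of 0.771 (0.709 to 0.84) in labelled null. Bnip3 was at 0.362, 2.45, 0.493 and 0.858, 6.76-fold higher (6.24 to 7.32) in control and 1.74-fold higher (1.59 to 1.91) in labelled null. Egln3 was at 0.00804, 0.0742, 0.036 and 0.0923, 9.22-fold higher (5.47 to 16.4) in control and 2.56-fold higher (1.85 to 3.62) in labelled null. These 3 genes were higher with imiquimod in control by more than in labelled null. Adm was at 0.642, 1.45, 0.44 and 0.893, with ratios of 2.26 (2.1 to 2.43) and 2.03 (1.85 to 2.23). Pfkfb3 was at 0.0344, 0.14, 0.0278 and 0.043 and 4.06-fold higher (3.06 to 5.43) in control, while its relative Pfkfb4, at 0.0907, 0.0447, 0.0745 and 0.0395, was called lower under both labels. Slc2a1, at 0.0603, 0.0999, 0.081 and 0.0884, Kdm3a, at 0.11, 0.184, 0.106 and 0.0939, and Pgk1, at 0.0782, 0.173, 0.179 and 0.187, were called higher in control and not in labelled null. Vegfa, at 0.139, 0.0523, 0.134 and 0.0931, was 2.66-fold lower (1.99 to 3.61) in control, the reverse of its direction in keratinocytes. Hif1a, at 0.502, 0.25, 0.517 and 0.642, was 2.01-fold lower (1.75 to 2.31) in control and at 1.24 (1.13 to 1.36) in labelled null. Pdk1, at 0.0755, 0.0475, 0.0736 and 0.0309, was 1.59-fold lower (1.15 to 2.22) and 2.38-fold lower (1.74 to 3.27).

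Set against each other under imiquimod, 11 of 30 genes were higher and 6 lower in labelled null than in control fibroblasts, with 9.85% of all genes higher and 25.3% lower. The higher share of all genes called went from 28.1% to 53.2% with TMM factors, which shift these log2 ratios by 0.25. Ddit4 was 10.2-fold lower (9.66 to 10.9), Pfkfb3 3.25-fold lower (2.52 to 4.2) and Bnip3 2.85-fold lower (2.69 to 3.02). Gapdh was 2.73-fold higher (2.61 to 2.87), Ldha 2.65-fold higher (2.51 to 2.79) and Hif1a 2.57-fold higher (2.25 to 2.94). In untreated fibroblasts 2 of 30 genes were higher in labelled null, Pgk1 at 2.29 (1.87 to 2.81) and Egln3 at 4.48 (2.53 to 8.23), and none lower, with 7.3% and 2.47% of all genes.

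Control and labelled null imiquimod comparisons share no library, so their calls can be laid over each other. In basal cells 18 genes were higher in both, 94.7% of those of control and 75% of those of labelled null. Over all genes called higher, 40.1% and 18.2% were shared in these cells. In suprabasal cells 23 were shared, 88.5% and 92%, beside 51.6% and 20.5% over all genes. In fibroblasts 5 were shared, 55.6% and 35.7%, beside 23.7% and 44.1% over all genes. They were Pfkfb3, Gpi1, Adm, Bnip3 and Egln3. The ratio of the labelled null ratio to the control ratio had a counting interval above 1 for 13 and below 1 for 7 of 31 genes in basal cells, for 15 and 5 of 30 in suprabasal cells and for 12 and 9 of 30 in fibroblasts. Over all genes measured in both comparisons it lay above 1 for 24.8% and below 1 for 23.3% in basal cells, above 1 for 21.1% and below 1 for 23.7% in suprabasal cells and above 1 for 19.8% and below 1 for 37.1% in fibroblasts. In basal cells the share of listed genes below 1 was thus near that of all genes. This ratio of ratios was 2.63 (2.4 to 2.88) for Ldha in basal cells, 2.66 (2.41 to 2.93) in suprabasal cells and 3.02 (2.8 to 3.25) in fibroblasts. For Gapdh it was 2.51 (2.32 to 2.71), 2.6 (2.4 to 2.83) and 2.74 (2.58 to 2.92) in the same classes. Both enzymes thus had the larger imiquimod ratio in labelled null in all 3 classes. Hif1a did likewise, at 1.51 (1.26 to 1.81), 2.0 (1.56 to 2.55) and 2.49 (2.12 to 2.93). For Ddit4 the values were 0.696 (0.533 to 0.91), 0.468 (0.357 to 0.614) and 0.144 (0.131 to 0.158), and for Pgk1 0.558 (0.404 to 0.771), 0.418 (0.282 to 0.619) and 0.471 (0.363 to 0.612), so both had the larger ratio in control in each class.

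**Figure D4:**
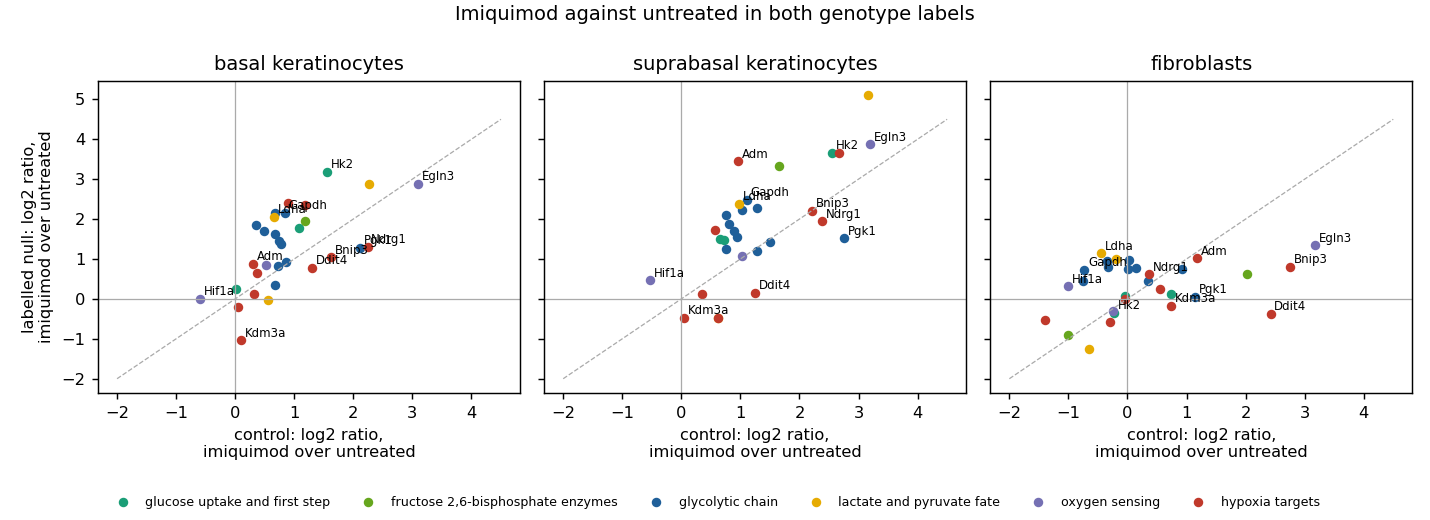
Log2 ratio of imiquimod to untreated in control (x axis) and in labelled null (y axis) for each measured gene, coloured by role, in 3 cell classes (panels); the dashed line marks equal ratios. In keratinocytes most points lie in the upper right, many above the line. In fibroblasts Gapdh and Ldha lie at the left above 0, and Ddit4 and Bnip3 at the right below the line.

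The other 6 classes had fewer cells and fewer measured genes. With imiquimod, control upper hair follicle keratinocytes had 17 higher (background 5.92%) and 0 lower (10.7%) of 27 measured genes, and labelled null ones had 21 higher (background 15.9%) and 2 lower (23.7%) of 29. The Sostdc1-led class had 16 higher (background 6.68%) and 1 lower (10.2%) of 27 in control and 18 higher (background 21.2%) and 1 lower (21.3%) of 29 in labelled null. Both classes thus had most of their measured genes higher with imiquimod under either label. Bulge or outer root sheath cells had 5 higher (background 11.5%) and 0 lower (8.32%) of 23 in control and 7 higher (background 8.41%) and 2 lower (8.73%) of 22 in labelled null. T or NK cells had 8 higher (background 6.84%) and 1 lower (4.93%) of 20 and 8 higher (background 11.1%) and 1 lower (9.56%) of 22. Mural cells had 0 higher (background 7.45%) and 5 lower (10%) of 19 and 2 higher (background 9.28%) and 1 lower (10.5%) of 21, and the control genes called lower were Hk1, Adm, Tpi1, Gapdh and Aldoa. Macrophages or monocytes had 6 higher (background 9.08%) and 0 lower (8.94%) of 27 and 11 higher (background 18.5%) and 0 lower (13.8%) of 27. The share of that class with a UMI of Cd207, the Langerhans cell marker langerin, was 17, 10.9, 20.9 and 61.5 percent in the 4 libraries at median depths of 6243, 4427, 5484 and 7454 UMIs. The same share in fibroblasts, which should lack Cd207, was 0.541, 0.338, 0.86 and 0.823 percent. The part of Langerhans cells in the macrophage ratios was not tested.

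Between the untreated libraries, these classes gave from 0 to 3 calls in either direction. Labelled null upper hair follicle keratinocytes had 1 higher (background 3.23%) and 2 lower (3.38%) of 25 measured genes, and the Sostdc1-led class had 1 higher (background 3.33%) and 0 lower (3.81%) of 26. Bulge or outer root sheath cells had 1 higher (background 2.95%) and 1 lower (3.04%) of 22 and mural cells 0 higher (background 3.73%) and 2 lower (4.88%) of 20. Macrophages or monocytes had 1 higher (background 4.1%) and 1 lower (7.37%) of 27 and T or NK cells 3 higher (background 5.8%) and 3 lower (4.52%) of 19. The T or NK shares were above their background in both directions, on 3 genes each. Across classes, Bnip3 was called higher with imiquimod in 7 of 9 classes in control and 5 in labelled null. Ldha was called higher in 4 and 8 of 9 classes, and Egln3 in 5 and 5 of the 5 in which it was measured. Ddit4 was called higher in 6 classes in control, and in labelled null higher in 3 and lower in 3.

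Other genes of these pathways, listed with earlier results of these data known, put the 32 in context. Of the other HIF pathway and hypoxia genes, 10 of 26 were higher and none lower with imiquimod in control basal cells, beside 7.64% and 16.4% of all genes. In labelled null basal cells 16 of 28 were higher and 4 lower, beside 16.2% and 29%. In labelled null basal cells Stc2 (stanniocalcin 2), with 1 UMI in the untreated library, was at 0.00215 and 0.0834 UMIs per 10000, 38.8-fold higher (6.76 to 1549), and Car12 (carbonic anhydrase 12) at 0.166 and 0.838 UMIs per 10000, 5.06-fold higher (4.0 to 6.48). In control basal cells Angptl4, a lipase inhibitor, was at 0.069 and 0.519 UMIs per 10000, 7.52-fold higher (4.8 to 12.4). In control fibroblasts 10 of 31 were higher and 9 lower, beside 17.5% and 17.1% of all genes. In labelled null fibroblasts 7 were higher and 7 lower of 32, beside 9.38% and 28.4%. Fibroblast P4ha2, a collagen prolyl hydroxylase like P4ha1, was at 2.79 and 0.279 UMIs per 10000, 10-fold lower (8.9 to 11.3) with imiquimod in control. Fibroblast Epas1 (HIF-2 alpha) was at 0.0319 and 0.677 UMIs per 10000, 21.2-fold higher (15.4 to 29.9) in labelled null. Of the other glycolytic isozymes and transporters, 2 of 12 were higher and 2 lower in control basal cells, and 3 of 9 higher and 4 lower in labelled null. The shares of all genes beside these are the basal ones above. Slc16a1 (MCT1), a lactate and pyruvate transporter, was at 0.0237 and 0.692 UMIs per 10000, 29.2-fold higher (16.2 to 58.8) in labelled null basal cells. Ldhb, the lactate dehydrogenase form that favours pyruvate, went against Ldha, at 0.198 and 0.0276 UMIs per 10000, 7.16-fold lower (4.47 to 12.1) in labelled null suprabasal cells.

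Nuclear genes of mitochondrial respiration were higher with imiquimod mainly under the null label in keratinocytes. Of 20 nuclear-encoded genes of oxidative phosphorylation, 0 were higher and 1 lower with imiquimod in control basal cells, and 12 higher and none lower in labelled null. Of 20 genes of pyruvate dehydrogenase and the citric acid cycle the counts were likewise 0 higher and 1 lower in control, and 12 higher and none lower in labelled null. Ndufa4, a cytochrome c oxidase subunit, was at 3.29 and 16.5 UMIs per 10000, 5.01-fold higher (4.75 to 5.28) in labelled null basal cells, and Cycs (cytochrome c) at 2.03 and 4.76 UMIs per 10000, 2.35-fold higher (2.19 to 2.52). In suprabasal cells 1 of 20 oxidative phosphorylation genes was higher in control and 14 in labelled null, and in fibroblasts 1 in each. In the labelled null imiquimod keratinocytes genes of glycolysis and of respiration were thus both higher than in labelled null untreated ones. Of 7 pentose phosphate pathway genes, 3 were higher in labelled null basal cells and none in control. Each of these counts stands beside the same background of all genes given above for its comparison.

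Summed over the 32 genes, these transcripts were found across basal keratinocytes and not in a few cells alone. The sum is weighted to the abundant enzymes and does not give the spread of each gene. When each cell was thinned to 1000 UMIs, which left no cell out, the median cell held 3, 4, 3 and 9 UMIs of the 32 genes in basal keratinocytes of the 4 libraries. The cell at the 10th percentile held 1, 1, 1 and 4 and the one at the 90th 6, 9, 6 and 16. Suprabasal medians were 2, 4, 2 and 8, and fibroblast medians 2, 2, 2 and 3. The whole range was thus moved up in labelled null imiquimod keratinocytes, and fibroblasts of the 4 libraries overlapped widely. Among clusters of 1 library the basal sums ran from 48.5 to 74.3 UMIs per 10000 in control imiquimod, and from 95.6 to 114 in labelled null imiquimod skin. Clusters are parts of 1 library and not replicates, so these ranges do not check the difference between the libraries. Control untreated basal clusters stood at 30.4 and 37.7, the latter led by cell-cycle genes such as Top2a. Such genes led 188 control imiquimod basal cells, at 55.5, beside 48.5 in the largest cluster and 74.3 in that led by Atf3. In labelled null untreated skin they led 78, at 37.2, beside 29.8 in the largest. Both basal clusters of labelled null imiquimod skin had cell-cycle genes among their leading genes. The basal class thus differed in make-up between libraries, and the part of this in the sums was not tested.

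Adm, singled out after the values were seen, varied widely between basal clusters of the same library. In control imiquimod skin it was at 1.33 UMIs per 10000 in a cluster of 120 cells led by Atf3, Epgn and Ptgs2, and at 0.0554 in the largest cluster. In control untreated skin it was at 0.898 in a cluster of 50 cells led by the cell-cycle genes Ube2c, Top2a and Cdc20, and at 0.0145 in the other. Labelled null imiquimod skin had 1.27 in a cluster led by Nppb, Hist1h2ap and Epgn, and 0.0683 in the other. Fibroblast Adm was highest in clusters led by Gpx3, at 2.29, 4.91, 2.36 and, in the cluster led by Ctla2a and Gpx3, 1.5. Fibroblast Ddit4 ran from 2.89 to 6.05 over the 5 clusters of control imiquimod skin and from 0.241 to 1.57 over those of labelled null imiquimod skin. Those clusters were made on all variable genes, and their levels are a description.

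Several measures moved with the libraries beside these results. Genes of dissociation stress summed to 82.2, 52.5, 77.4 and 56.4 UMIs per 10000 in basal cells, 59.3, 29.8, 46.5 and 55.6 in suprabasal cells and 221, 123, 203 and 136 in fibroblasts. All 8 fibroblast markers were detected in basal cells of every library, at sums of 15.9, 11.1, 23 and 8.22. In fibroblasts the 8 basal keratinocyte markers summed to 3.04, 10.6, 9.91 and 4.05 and the 10 suprabasal markers to 2.76, 11.8, 11.5 and 3.71. Skeletal muscle, a tissue rich in glycolytic enzymes, gave 20 cells in control untreated and 3 in control imiquimod skin, with 372 and 568 UMIs of the 32 genes per 10000. Its markers summed to 0.575, 0.0637, 0.0876 and 0.542 in fibroblasts, near 0 beside 1326 in the muscle cells themselves. Median mitochondrial percentages were 3.24, 3.56, 3.69 and 2.21 in basal cells and 2.32, 2.24, 3.02 and 1.99 in fibroblasts. The part of these measures in the results was not tested.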

How the data were processed

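The 4 libraries of sorted back-skin cells were deposited by the authors as 1 matrix of raw UMI counts per gene and cell barcode (27998 genes, 23455 barcodes). Per the submitters' processing notes it was made with Cell Ranger 2.1.0 on mm10, and per the labels the barcode suffix gives the library. From these counts, barcodes with fewer than 200 genes or with more than 10% of UMIs from mitochondrial genes were dropped (116, 192, 272 and 56 in the order used in the report). Simulated doublets were compared with each library by Scrublet, and barcodes scoring above 0.25 were dropped (120, 94, 78 and 118). Cells were clustered jointly and per library with scanpy 1.11.5 (2000 variable genes, 30 components, 15 neighbours, Leiden resolution 1), and each of the 28 joint clusters was named where at least 3 markers of 1 type led it. A cell took the name from its own library's clustering where its joint cluster was unnamed or over 2/3 from 1 library. Joint clustering was used without batch integration. Counts were summed per class and library and divided by the class total. Ratio intervals are exact conditional binomial intervals from scipy 1.17.1. The intervals of the ratio of ratios use the delta method on the log scale. Log2 ratios add 0.5 count. TMM factors come from edgeR 4.0.16. As each group is a single library, groups were not tested against each other, and all intervals cover counting error only. The code was tested on simulated data.

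The 32 genes and all gene lists were chosen with earlier results of these data known. Every listed gene could be named. Of the other pathway lists, at most the 4 genes with the largest ratio among those called in a class could be named, and Pgk1-rs7, Eno1b, Ovol1, Cd207 and the genes that lead a cluster are named besides. Alternatives were run in the basal, suprabasal and fibroblast classes only, so calls of the other classes were not checked in this way. In each comparison of these classes, 10 alternatives planned at the start were run for the calls, and a sum without Gapdh was planned besides. A further 4 were chosen after seeing the data: joint cluster names throughout, cells of 4000 to 12000 UMIs, the Sostdc1-led clusters counted as basal (basal cells only), and the hypoxia targets summed without Ddit4. The filling-in of class names from a library's own clusters was also settled after seeing the clusters. Of the marker symbols, 6 were not in the table. Promoter sequences and their starts are RefSeq's on GRCm38.p6.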

Additional observations from a re-analysis of the deposited data

Results flagged for a closer look

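For 6 pairs of a gene and a class the log2 ratio of imiquimod to untreated passed the rule for a call in opposite directions under the 2 genotype labels. Each direction rests on 1 library per group, and the difference between the labels was not tested. No share of all genes called in opposite directions stands beside this count, so it is not read as a result about the listed genes. Gapdh in fibroblasts stood at -0.73 in control and 0.725 in labelled null. Ddit4 in bulge or outer root sheath cells stood at 1.13 in control and -1.47 in labelled null. Hk2 in the same cells stood at 1.46 and -0.585. In T or NK cells Hk2 also went from higher in control, at 0.84, to lower in labelled null, at -1.39. In both of these classes Hk2 was also called higher in labelled null than in control untreated skin, so its untreated levels differed. Hif1a in the Sostdc1-led class stood at -0.91 and 0.59. Pdk1 in upper hair follicle keratinocytes stood at 1.06 and -0.93. Largest joint clusters of the Sostdc1-led class were 14, 19, 14 and 9 and of the upper hair follicle class 15, 8, 15 and 8 in the 4 libraries, so those values are set between different clusters.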

How the results depend on the processing

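The summed ratios of the 32 genes with imiquimod against untreated, and between the imiquimod libraries, stayed above 1 under every alternative in the 3 classes described in detail. Those between the untreated libraries, close to 1, came to lie above 1 in basal cells with the Sostdc1-led clusters as basal (1.01), in suprabasal cells with TMM (1.01) and in fibroblasts of 4000 to 12000 UMIs (just over 1). The sum of the hypoxia targets turned its direction without Ddit4 between the imiquimod libraries in suprabasal cells, to a ratio of 1.04, and between the untreated libraries in fibroblasts, to 1.02. Over the alternatives the summed ratio ran in basal cells from 1.58 to 1.88 in control and from 2.68 to 3.71 in labelled null imiquimod skin against untreated skin. In suprabasal cells it ran from 1.92 to 2.18 and from 2.92 to 4.39, and in fibroblasts from 1.24 to 1.38 and from 1.56 to 1.89. Of the genes called, 13 of 20 in control and 18 of 25 in labelled null basal cells had the same call under every alternative at a fold of 1.5, 19 of 26 and 22 of 25 in suprabasal cells, and 13 of 15 and 14 of 16 in fibroblasts. With the fold of 2 counted too, these were 8 and 16, 13 and 22, and 9 and 5. The log2 ratio turned its sign for 2 basal genes between the imiquimod libraries, Aldoc at resolution 2 (0.33 in place of -0.65) and Adm in cells of 4000 to 12000 UMIs (-0.64 in place of 0.66).

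Most counts that moved by over 1.5 times were small. In control basal cells with imiquimod, the gene called lower, Hif1a, left 0 when each library was clustered on its own, at resolution 2, in cells of 4000 to 12000 UMIs, with the Sostdc1-led clusters as basal, as a mean over cells, with TMM and at a fold of 2. In labelled null basal cells, 0 were lower in cells of 4000 to 12000 UMIs. Between untreated libraries, basal cells had 1 higher with the Sostdc1-led clusters as basal and at a fold of 2, and 2 lower as a mean over cells. Between imiquimod libraries, basal cells had 1 lower in cells of 4000 to 12000 UMIs and at a fold of 2, and 5 lower with joint names throughout. In suprabasal cells with imiquimod, 1 was lower in control under the stricter cell filter (500 genes, 5% mitochondrial), and 1 in labelled null at resolution 2, with joint names and as a mean over cells. Between untreated libraries, suprabasal cells had 2 higher with doublets kept, with the stricter filter and with TMM, 3 in cells of 4000 to 12000 UMIs and 4 as a mean over cells, and 0 lower in cells of at least 4000 UMIs or of 4000 to 12000 UMIs, with TMM and at a fold of 2. Fibroblasts had 4 lower in labelled null with each library clustered on its own, and between untreated libraries 1 lower with that clustering, the stricter filter, cells of at least 4000 UMIs and TMM. At a fold of 2 the other counts were 9 higher in control basal cells, 7 higher between imiquimod basal cells, 15 higher in control suprabasal cells, and in fibroblasts 3 lower in control, 4 higher and 1 lower in labelled null and 3 lower between imiquimod libraries, by the rule's own construction. The cause of the other moves was not tested.

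No paired analysis was possible because each group is 1 library. Leaving out a library was not run, since it empties its group. Depth limits the rare genes: Car9, Pfkfb4, Slc16a3, Hk2 and Vegfa rest on few UMIs in untreated keratinocytes.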
